A study of Mus musculus with 6 samples.

Results

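Ifitm1, Ifitm2, Ifitm3, Bst2 and Apobec3, 5 genes of antiviral defence, were followed by RNA sequencing in the 4T-1 line of mouse mammary carcinoma cells. They were taken by name from the deposited count table, where each had 1 row, so the set is 5 of 55487 genes. The 6 libraries came from untreated cells that were wild type (n = 3) or Lyplal1 knockout (n = 3), and all were labelled as breast cancer cells of that line. The targeted gene, Lyplal1, encodes a relative of the acyl-protein thioesterases, which the series title ties to depalmitoylation of the DNA sensor cGAS. In the deposited data all knockout libraries carry the label 4T1_sg2 and all wild-type libraries the label 4T1_NC, and neither label is explained. If sg2 stands for 1 guide RNA, loss of Lyplal1 and effects of that guide or line cannot be told apart. The sources used here do not say whether the knockout cells were 1 clone, or whether the libraries of a group came from separate cultures. The p-values therefore measure the spread between these libraries, which may be technical. Bulk RNA cannot tell a change in every cell from a change in the share of cells that express a gene.

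IFITM proteins are small membrane proteins of the plasma membrane and endosomes that hinder the fusion of enveloped viruses with the cell. Palmitate on cysteines near the membrane is needed for their activity. BST2, also called tetherin, spans the membrane at one end, carries a glycosylphosphatidylinositol (GPI) anchor at the other, and holds budding virions on the cell surface. APOBEC3 is a cytidine deaminase that enters retroviral particles and hinders reverse transcription. Humans have several APOBEC3 genes and the mouse has a single one. Interferon induces many such genes through transcription factors that bind DNA elements built on repeated GAAA.

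Total counts ran from 16731209 to 17108975 per library. The targeted gene Lyplal1 gave 76, 73 and 68 counts in wild-type cells and 54, 48 and 58 in knockout cells. These did not overlap, and scaled counts of the groups did not overlap for 83.1% of all tested genes. Lyplal1 was not called (log2 fold change -0.28, edgeR adjusted p = 0.0886), which leaves the labels unchecked by this gene's RNA.

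The letters of such elements are shown first, because members that rose and a member that was not called both carry them near their start sites. RefSeq start-site windows (GRCm38.p6, 250 bases before to 50 bases after each start) were found for all 5 genes. A short and a longer form of the element were searched on both strands, the core (GAAA, any 2 bases, GAAA) and the longer element (the core followed by CT), so every longer element also holds a core. Capitals mark the longer element, except for Ifitm2, where they mark the core, the only form present. All sequences are written 5′ to 3′ on the strand of the gene. The Ifitm3 site lies on the minus strand at chr7:141010713-141010742, the Ifitm2 site on the minus strand at chr7:140955988-140956017, the Bst2 site on the minus strand at chr8:71537582-71537611 and the Apobec3 site on the plus strand at chr15:79892257-79892286.
Ifitm3: GAAAAGGAAACTtctgaGAAACCGAAACTg
Ifitm2: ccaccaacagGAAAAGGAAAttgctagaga
Bst2: gcattccagGAAAATGAAACTgaaaggctg
Apobec3: ccatcagttAGTTTCCCTTTCtctttgcga

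The Ifitm3 window held the longer element in 2 copies, between bases 3 and 31 after the RefSeq start, inside the exon that GENCODE M21 annotates there. The Ifitm2 window held the core in 1 copy, from 46 to 37 bases before the start, and the longer element in none. In Bst2 the longer element ran from 130 to 119 bases before the start and overlapped a further copy of the core. Apobec3 held the longer element on the opposite strand, 142 to 131 bases before the start of 1 of its 2 windows, in a stretch that GENCODE annotates as exon. The Ifitm1 window held neither form, which says only that these letters are not in that window. The upstream part of the Bst2 window, chr8:71537473-71537722 on the minus strand, is printed whole because it has both forms outside any annotated exon, with the joined core and longer element in capitals.
Bst2 upstream: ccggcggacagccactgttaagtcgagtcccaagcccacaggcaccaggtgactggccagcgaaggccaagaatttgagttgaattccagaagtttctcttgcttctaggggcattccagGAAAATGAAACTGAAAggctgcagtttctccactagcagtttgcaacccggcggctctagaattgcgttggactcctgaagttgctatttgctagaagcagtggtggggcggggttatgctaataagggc

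The longer element occurred in 0.271% of 32851 RefSeq windows and the core in 3.44%. A STAT site (TTC, any 3 bases, GAA, the same on both strands) occurred in 8.3% of windows and in those of Ifitm3 and Bst2, where it overlapped the element. Of 45 tested genes with the longer element in a window, 34 rose in knockout, 8 fell and 3 were not called. The share that rose was 75.6%, against 43.2% of 9433 tested genes with any window, and the share that rose at least 2-fold was 66.7% against 11.8%. For the core these shares were 56.0% and 29.6% of 361 tested genes, and for the STAT site 43.5% and 14.4% of 773. Ifitm3 and Bst2 were among the genes that rose, and Apobec3 was among the 3 not called. Genes that passed the filter on low counts only through knockout libraries were not set apart in these shares. A match of letters is a description and not a measured binding site.

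Bst2 and Ifitm3 stood far higher in knockout, Ifitm2 moved little, Apobec3 was not called, and Ifitm1 was close to absent in both groups. CPM are counts scaled to 1000000 of the TMM-adjusted library size, and fold changes are knockout over wild type from edgeR's quasi-likelihood test with Benjamini-Hochberg adjustment over all 13022 tested genes. Across those genes 82.3% were called at an adjusted p under 0.05, 41.3% higher and 40.9% lower, so a call by itself sets no gene apart in this comparison. Of the calls 50.2% were higher in knockout, against 38.5% on log2(TPM + 1).

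Ifitm3 (ENSMUSG00000025492, chromosome 7, 141009586 to 141010770, GRCm38) encodes the family member best known for restricting influenza virus. Wild-type cells gave 845, 875 and 893 counts of it and knockout cells gave 11393, 11265 and 12352. The lowest knockout library was above the highest wild-type library, and CPM of the groups did not overlap for 83.1% of tested genes. The level went from 48.8 ± 1.54 to 731 ± 40.4 CPM (mean and SD, n = 3 each). The log2 fold change was 3.90 ± 0.0439 (SE), a 15-fold rise (edgeR adjusted p = 2.77e-30). A rise of at least 10-fold was called for 1.95% of tested genes, and Ifitm3 ranked 213 by fitted log2 fold change.

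Bst2 (ENSMUSG00000046718, chromosome 8, 71534255 to 71537456) encodes tetherin. Wild-type cells gave 374, 435 and 396 counts of this gene, while knockout cells gave 15959, 16638 and 17418. The groups did not overlap, as CPM did not for 83.1% of tested genes, and knockout counts lay close together. The level went from 22.5 ± 1.77 to 1044 ± 49.5 CPM (mean and SD, n = 3 each). The log2 fold change was 5.54 ± 0.0502 (SE), a 46.4-fold rise (edgeR adjusted p = 3.3e-31), which ranked 146 among the tested genes. Bst2 alone took 0.0995% of all counts in knockout libraries and 0.00236% in wild-type libraries.

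Ifitm2 (ENSMUSG00000060591, chromosome 7, 140954837 to 140955987) encodes the paralog closest to Ifitm3 in this set. Counts were 686, 721 and 779 in wild-type cells and 810, 746 and 846 in knockout cells, and these raw counts overlapped between the groups. After TMM scaling they did not, as for 83.1% of tested genes. Wild-type cells stood at 38.3, 40.4 and 43.8 CPM and knockout cells at 50.6, 46.6 and 53.2 CPM. The fitted change was a 1.23-fold rise (log2 fold change 0.30 ± 0.0589, 95% interval 0.18 to 0.42, edgeR adjusted p = 5.36e-05). On the deposited TPM the groups overlapped again and the change was not called (limma-trend on log2(TPM + 1), 0.09, adjusted p = 0.144). By fitted change 64.2% of tested genes lay below Ifitm2, and its rank among rises was 4665.

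Apobec3 (ENSMUSG00000009585, chromosome 15, 79891659 to 79915906) gave 762, 790 and 821 counts in wild-type cells, above all knockout values of 747, 712 and 750. After TMM scaling the groups overlapped, with wild-type cells at 42.5, 44.3 and 46.1 CPM and knockout cells at 46.7, 44.4 and 47.2 CPM. The log2 fold change was 0.06 ± 0.0526 (SE), with a 95% interval of -0.05 to 0.17 (edgeR adjusted p = 0.316). Its direction depended on the scaling. It was -0.08 with upper-quartile factors (edgeR adjusted p = 0.183), and on log2(TPM + 1) it was called lower at -0.14 (limma-trend adjusted p = 0.035). The median of all tested genes moved the same way, from -0.00 with TMM to -0.13 with upper-quartile factors and -0.19 on log2(TPM + 1). Relative to that median, Apobec3 stood at 0.06 with upper-quartile factors and 0.05 on log2(TPM + 1), and Ifitm2 stood at 0.30 and 0.28.

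**Figure D1:**
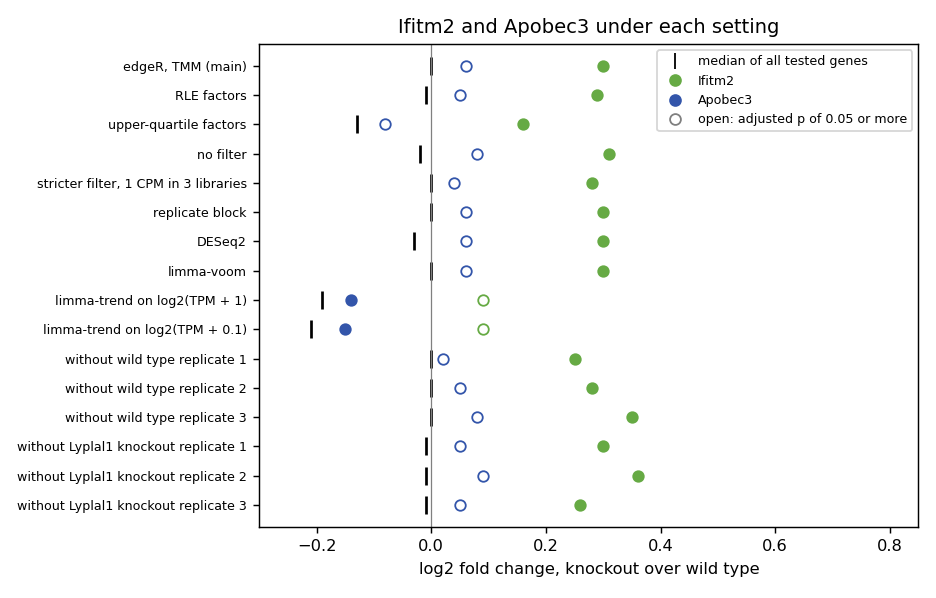
Log2 fold change of Ifitm2 (green) and Apobec3 (blue) under each of 16 settings, with the median of all tested genes as a black tick. Filled points had an adjusted p under 0.05. Ifitm2 lies to the right of the median throughout, between 0.09 and 0.36, and Apobec3 lies close to it, between -0.15 and 0.09.

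Ifitm1 (ENSMUSG00000025491, chromosome 7, 140967221 to 140969825) gave 0, 3 and 0 counts in wild-type cells and 1, 1 and 3 in knockout cells. Of the family it is the member found mainly at the plasma membrane. It did not pass the filter on low counts and was not tested. The pooled counts of 3 and 5 give a ratio of 1.86 with an exact 95% interval of 0.362 to 12, which covers counting error only. That interval lies below the rises of Ifitm3 and Bst2, but it rests on 3 wild-type counts, all in replicate 2. Without that library no ratio can be formed, so a rise of that size is not excluded. A fall or a smaller rise was not detectable at this depth. Leaving out one library at a time gave, where both groups kept counts, log2 ratios from 0.16 (without knockout replicate 3) to 1.16, against 0.90 with all. The gene lies between Ifitm2 and Ifitm3 on the chromosome.

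**Figure D2:**
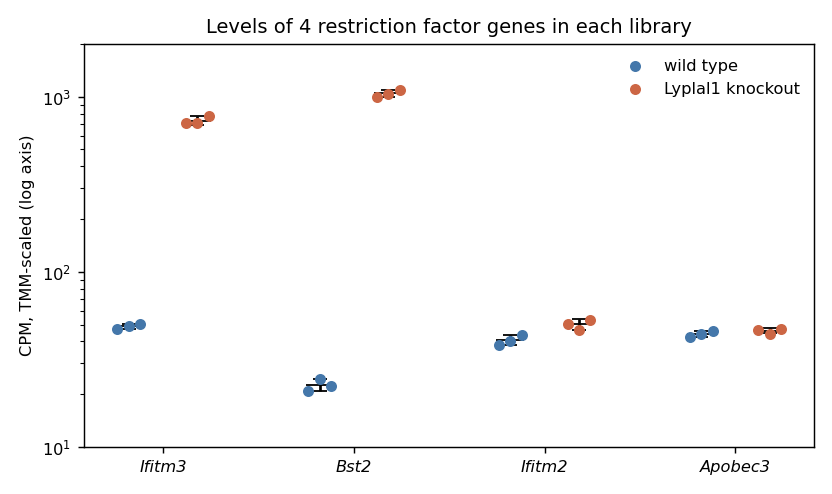
CPM of Ifitm3, Bst2, Ifitm2 and Apobec3 in each library on a log axis, wild type in blue and Lyplal1 knockout in orange, with the mean (long tick) and SD (error bar) of 3 libraries. Ifitm3 and Bst2 lie above 700 CPM in every knockout library, while Ifitm2 and Apobec3 stay between 38.3 and 53.2 CPM in all 6 libraries.

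Levels of different genes were compared per length, on the deposited TPM. In wild type the order was Ifitm3 (297, 309 and 313 TPM), Ifitm2 (249.7, 264 and 283 TPM), Bst2 (98.7, 115 and 104 TPM), Apobec3 (19.2, 20.0 and 20.7 TPM) and Ifitm1 (0, 0.657 and 0 TPM). No neighbours in that order overlapped. In knockout Bst2 led, at 4112, 4289 and 4389.9 TPM, with Ifitm3 next at 3909.8, 3868 and 4146 TPM. The ranges of these genes overlapped, although Bst2 was the higher in each library. Ifitm2 followed at 288, 265 and 294 TPM, then Apobec3 at 18.4, 17.5 and 18.1 TPM, below all its wild-type values, and Ifitm1 at 0.213, 0.213 and 0.624 TPM. Bst2 went from rank 2048 of all 55487 genes by mean TPM in wild type to rank 12 in knockout, and Ifitm3 from rank 450 to rank 15. Ifitm2 held ranks 557 and 576, and Apobec3 ranks 7634 and 7504. On this scale Bst2 was divided by 903 bases, and its longest GENCODE transcript has 792. The TPM of Apobec3 were divided by 9454 bases, the union of all its annotated exons, whereas its 20 GENCODE transcripts are 420 to 3053 bases long, so its level per transcript length is understated on this scale.

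Ifitm3 made up more of the IFITM pool in knockout libraries, which restates that it rose far more than Ifitm2. Summed TPM of Ifitm1, Ifitm2 and Ifitm3 came to 547, 573 and 597 in wild type, against 4198, 4133 and 4441 in knockout, a ratio of means of 7.44. Of that sum Ifitm2 held 45.7%, 46.0% and 47.5% in wild-type cells but 6.85%, 6.41% and 6.62% in knockout cells. The share of Ifitm3 was 54.3%, 53.9% and 52.5% in wild-type cells and 93.1%, 93.6% and 93.4% in knockout cells. The shares of both genes did not overlap between the groups (exact permutation test, two-sided, p = 0.1, the smallest that 3 against 3 allows, adjusted p = 0.15 over 3 genes). CPM of single genes did not overlap for 83.1% of tested genes. The share of Ifitm1 was at most 0.115% in any library.

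**Figure D3:**
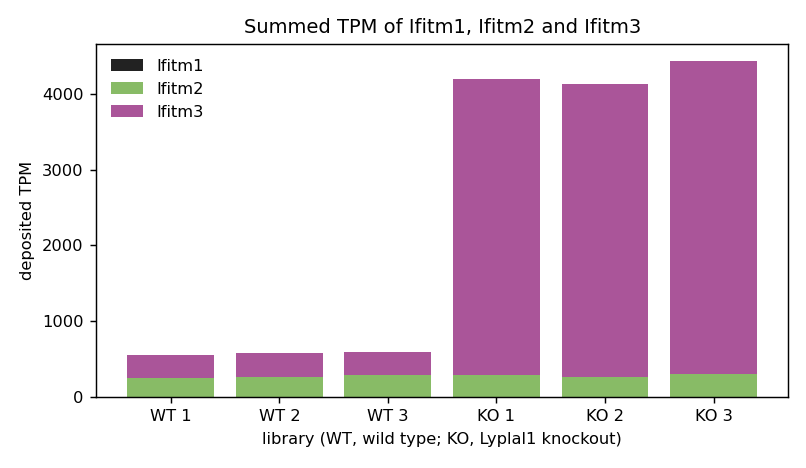
Deposited TPM of Ifitm1, Ifitm2 and Ifitm3 stacked for each library, from 0. The Ifitm2 part is of like height in all 6 bars, between 249.7 and 294 TPM, and the Ifitm3 part grows from at most 313 TPM in wild type to at least 3868 TPM in knockout. Ifitm1 is too low to be seen.

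Ratios between members within a library do not depend on how libraries are scaled to each other. The log2 ratio of Ifitm3 to Bst2 CPM was 1.12 ± 0.10 in wild type and -0.51 ± 0.04 in knockout (SD, n = 3 each). It fell by 1.63 on the log2 scale, so Bst2 was raised by more than Ifitm3. The log2 ratio of Ifitm2 to Ifitm3 fell by 3.61, and that of Ifitm3 to Apobec3 rose by 3.85. For Ifitm2 over Apobec3 the log2 ratios were -0.15, -0.13 and -0.08 in wild-type cells and 0.12, 0.07 and 0.17 in knockout cells, a shift of 0.24. For all 6 pairs of members with counts in every library the ratios did not overlap between the groups (exact permutation test, two-sided, p = 0.1 each, the smallest possible, adjusted p = 0.1 over the 6 pairs). The share of all gene pairs whose ratios do not overlap was not computed, and since CPM of single genes did not overlap for 83.1% of tested genes, nothing particular to the members is read from this count.

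Part of the sequence of these genes is shared with other genes, and how such reads were handled is not stated in the labels or notes. The coding sequences of Ifitm2 and Ifitm3 were 75.9% identical, with 69 bases as the longest identical stretch. Ifitm1 was 60.4% identical to Ifitm2 and 63.5% to Ifitm3. Of the stretches of 50 bases in the annotated transcripts, 48.5% of those of Ifitm2 occurred in transcripts of another gene, against 10% for Ifitm3, 5.02% for Ifitm1, 8.84% for Apobec3 and 0% for Bst2. Ifitm3 had 629 such stretches, of which 20 occurred in Ifitm2. Whether reads from Ifitm3 add to the small rise of Ifitm2 was not tested. Of the 294 stretches of Ifitm2 found in another gene, 219 occurred in the gene model Gm45717, though a stretch can occur in several genes. That model lies at the same locus, covers 268 of the 655 exon bases of Ifitm2 and had 0 counts in every library. How reads in that overlap were assigned is not known. The processed pseudogene Gm7676, which shares stretches with Ifitm1 and Ifitm3, gave 1, 1 and 1 counts in wild-type cells and 24, 21 and 24 in knockout cells. Apobec3 overlaps the model D730005E14Rik over 676 exon bases and Cbx7 over 100, and the strand setting of the counts is not known.

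The paralogs outside the set were low. Ifitm6, beyond Ifitm3 on chromosome 7, gave 0, 1 and 0 counts in wild-type cells and 30, 20 and 26 in knockout cells, a ratio of 85 (exact 95% interval 14.8 to 3399) and a called rise (edgeR adjusted p = 7.21e-10). This gene passed the filter on low counts only through knockout libraries. Ifitm5 summed to 13 counts in wild type against 4 in knockout, and Ifitm10 to 7 against 1. Ifitm7 had a single count in all. Among the relatives of Apobec3, the messenger RNA editing enzyme gene Apobec1 rose 2.49-fold, from 4.61 to 11.5 mean CPM (log2 fold change 1.32 ± 0.11 SE, edgeR adjusted p = 2.11e-11). Apobec2 and Apobec4 had at most 4 counts over any group.

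Chromosome neighbours of the members were called in both directions. Of 44 other genes whose lower coordinate lies within 100 kb of a member, 24 were tested, of which 10 rose, 11 fell and 3 were not called, against 41.3% rising and 40.9% falling over all tested genes. Around the Ifitm cluster Ifitm6 rose, B4galnt4, a glycosyltransferase gene, fell (log2 fold change -1.49), and Psmd13, a proteasome subunit gene, rose 1.46-fold. Near Bst2, Mvb12a, which encodes a subunit of the ESCRT-I complex, rose 2.25-fold, and Slc27a1, a fatty acid transporter gene, rose 2.12-fold. Unc13a, on the same side of Bst2, fell by 1.71 on the log2 scale. Beside Apobec3, the Polycomb gene Cbx7 fell by 0.51 and the growth factor gene Pdgfb by 1.82 on the log2 scale, while Cbx6 rose 1.16-fold.

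**Figure D4:**
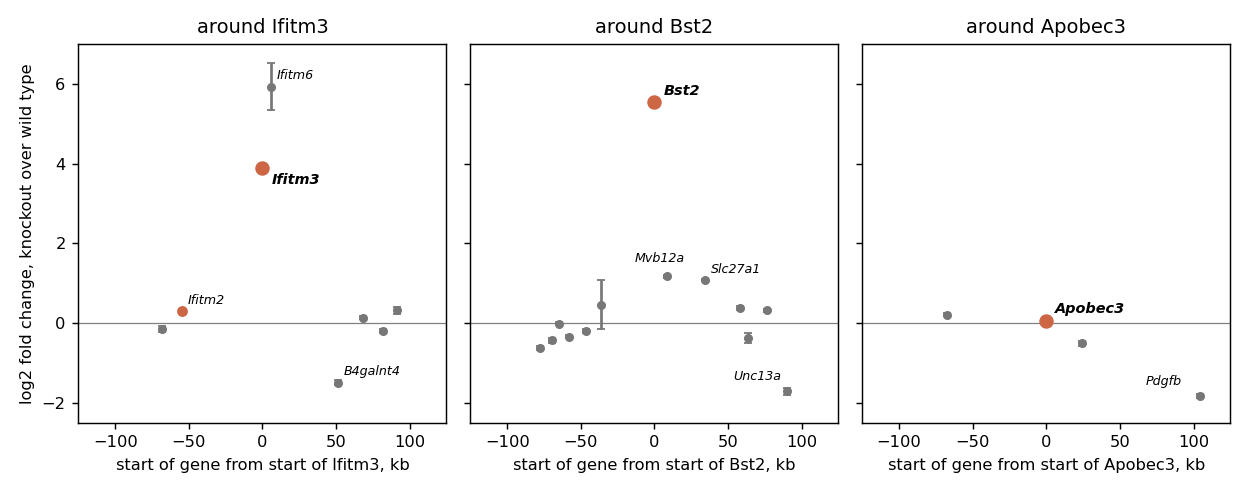
Fitted log2 fold change with SE (bars) of tested genes against the distance in kb of their lower coordinate from that of Ifitm3, Bst2 or Apobec3, members in orange. Ifitm3, Ifitm6 and Bst2 lie at 3.90, 5.93 and 5.54, while the other genes lie between -1.82 and 1.17.

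The tested genes with the profiles most like each member were taken by the smallest Euclidean distance of log2 CPM, centred on each gene's mean, over the 6 libraries. With libraries that fall into 2 groups this measures little beyond the size of the change. Nearest to Bst2 were Maged2 (distance 0.185) and Dhx58 (0.202), which encodes a helicase of RNA sensing. Maged2 had only 3 counts in wild type, so its place is uncertain. Nearest to Ifitm3 were H2-Oa (0.129), also with 3 wild-type counts, the interferon-induced gene Ifi35 (0.155) and Hsh2d (0.169), with 27 wild-type counts. Maged2, H2-Oa and Hsh2d passed the filter on low counts only through knockout libraries, so nothing is read from their nearness. Nearest to Ifitm2 were Emc6, Wdr45b and Trappc3, at fold changes of 1.22, 1.21 and 1.26, and nearest to Apobec3 were E2f4, Heatr6 and Chmp6, none of them called.

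Other restriction factor genes were set beside the members by the viral step they act on. Over all tested genes 41.3% rose and 40.9% fell. At entry, where IFITM proteins act, 1 of 5 tested genes rose, 2 fell and 2 were not called, with a median log2 fold change of -0.01. Ly6e, a GPI-anchored protein that hinders coronavirus entry, rose from 8 summed counts in wild type to 28062 in knockout. It passed the filter on low counts only through knockout libraries. Serinc5, which lowers the infectivity of retroviral particles, fell by 0.51 on the log2 scale and Ncoa7 by 0.73. After entry, where APOBEC3 acts on retroviruses, 6 of 7 tested genes rose and 1 fell, with a median of 3.49. Trim30a, Trim34a, Mx1 and Mx2 passed the filter on low counts only through knockout libraries. Their calls were thus close to fixed in advance, and they raise both this count and the median. Trim30a and Mx2 had 5 and 4 wild-type counts against 9473 and 13560 knockout counts. Mx1 had 1 and 6526, a ratio of 7295 with an exact 95% interval of 1309 to 288174. Samhd1, which depletes nucleotides for reverse transcription, rose 1.91-fold, while Fv1, a mouse factor against murine leukaemia virus, fell (log2 fold change -1.01).

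Of 9 factors on viral RNA and translation 6 rose and 3 fell, with a median log2 fold change of 0.62. Trim25 rose 10.2-fold and its partner in antiviral RNA decay, Zc3hav1, 2.73-fold, while the helicase gene Mov10 rose 2.89-fold. Khnyn, a further cofactor of Zc3hav1, fell by 0.55 on the log2 scale and Shfl by 1.31. At assembly and release, the step of tetherin, Rsad2 and Isg15 rose and Cnp was not called. Rsad2 also passed the filter on low counts only through knockout libraries. The fold of Bst2, 46.4, lay below the 139.9-fold of Isg15. Over all tested genes 41.3% rose, 40.9% fell and the median was -0.00, and no test of these lists as sets was made.

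**Figure D5:**
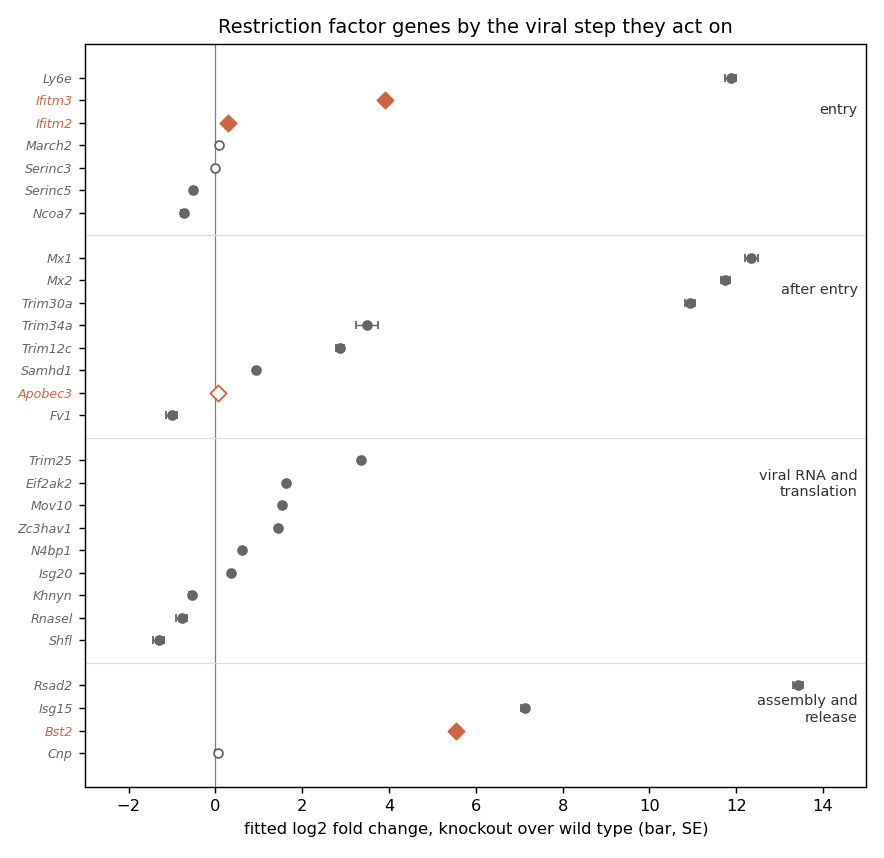
Fitted log2 fold change with SE of tested restriction factor genes, grouped by the viral step they act on, with members as orange diamonds and genes that were not called as open symbols. Bst2, at 5.54, and Ifitm3, at 3.90, lie below the highest genes of their steps, and fitted values of genes with few wild-type counts, such as Mx1, depend on the prior count.

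Genes whose products modify or carry the members were called in both directions, as were tested genes at large, of which 41.3% rose and 40.9% fell. Of 14 genes for IFITM modification and trafficking 10 rose, 3 fell and 1 was not called, with a median log2 fold change of 0.29. Zdhhc20, a palmitoyltransferase of IFITM3, fell by 0.65 on the log2 scale (edgeR adjusted p = 6.63e-12), from 102 to 64.8 mean CPM. Abhd16a, which removes palmitate from IFITM proteins, rose 2.29-fold, from 32.9 to 75.5 mean CPM (edgeR adjusted p = 3.35e-17). Nedd4, the ubiquitin ligase of IFITM3, fell by 0.68, from 1621 to 1012 mean CPM. Ap2m1, the adaptor subunit that reads tyrosine sorting signals, rose 2.6-fold. Palmitoylation itself was not measured.

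Of 11 genes for GPI anchor attachment and partners of tetherin 7 rose, 2 fell and 2 were not called, with a median of 0.26, and with upper-quartile factors 4 fell. The transamidase subunit gene Gpaa1 rose 2.74-fold, Pgap2 1.77-fold and March8, a ubiquitin ligase of membrane proteins, 1.65-fold. Arhgap44, which links human tetherin to actin, fell from 255 summed counts in wild type to 7 in knockout. Of 5 genes for excision of uracil, the product of cytidine deamination in DNA, Ung and Apex1 fell, Smug1 rose, and Tdg and Mbd4 were not called. Beside both lists, 41.3% of all tested genes rose and 40.9% fell.

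Of 8 genes for factors that read interferon response elements 6 rose and 2 fell, against 41.3% rising and 40.9% falling over all tested genes. Irf7 rose 287-fold, from 2.35 to 677 mean CPM. The 2 that fell were Irf3 and Irf8.

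Markers of the labelled cell type and of other cells were checked beside these results. Epithelial Cdh1, Krt8, Krt18 and Epcam were present in both groups. Of 6 tested epithelial markers 5 fell, against 40.9% of all tested genes. The summed level of the list was 3111 to 3198 CPM in wild-type libraries and 1712 to 1732 CPM in knockout libraries. Of 10 leukocyte and lymphoid markers none was tested, 4 had 0 counts in every library, and their summed level was at most 0.629 CPM. Bst2 also marks plasmacytoid dendritic cells, and Siglech, another marker of them, had 0 counts throughout, as did the neutrophil marker Ly6g. Other genes of that list had a few more counts in knockout. Ccr9 summed to 1 count in wild type and 4 in knockout, S100a8 to 1 and 8, S100a9 to 0 and 5, and Itgam to 0 and 4. The macrophage markers Adgre1 and Csf1r summed to 0 and 7 counts in wild type and 8 and 21 in knockout, while Mrc1, a further macrophage marker, gave 9, 8 and 13 counts in wild-type cells and 0, 0 and 2 in knockout cells. Of 11 myeloid markers 2 were tested and rose, against 41.3% of all tested genes that rose and 40.9% that fell. Lyz2, 1 of these 2, passed the filter on low counts only through knockout libraries, while Mrc1, which went the other way, was not tested. Cd68 went from 435 to 22148 counts over the groups, and Lyz2 had 28, 45 and 263 counts in knockout replicates 1 to 3, so the list summed to 8.69 to 9.04 CPM in wild-type libraries and 444 to 501 CPM in knockout libraries. The 8 fibroblast markers summed to 67.3 to 70 CPM in wild-type libraries and 171 to 180.2 CPM in knockout libraries, mostly from Pdgfra. Of the 2 tested, Pdgfra rose and Col1a1 fell, from 196 to 66 summed counts (log2 fold change -1.40, edgeR adjusted p = 3.66e-05). The list median of -0.01 rests on these 2 genes alone. All other markers of the list, which were not tested, had more counts in knockout. Col3a1 summed to 1 count in wild type and 73 in knockout, Col1a2 to 6 and 40, and Dcn to 8 and 21. Pdgfrb went from 0 to 11 summed counts, Thy1 from 0 to 8 and Lum from 0 to 2. The 4 endothelial markers summed to at most 0.223 CPM in wild-type libraries and 6.48 CPM in knockout libraries. Knockout replicate 3 held the most Lyz2, Col3a1 and Kdr counts (263, 64 and 23). Without it the log2 fold changes were 3.87 for Ifitm3, 5.51 for Bst2, 0.26 for Ifitm2 and 0.05 for Apobec3. What part cells of other types have in these results was not tested.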

How the data were processed

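The members and gene lists were chosen with earlier results of these data known. Per the submitters' processing notes, STAR 2.7.8a, featureCounts 2.0.1 and GRCm38 were used, in roles that are not stated. The authors deposited raw counts per gene and TPM for 55487 genes, and the 12 per-sample files held the same values as the whole-series tables. The deposited TPM used the union exon length of GENCODE M21 for the members tried. Gene identifiers were matched to that release for 55227 genes.

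Counts were tested with edgeR 4.0.16 (filterByExpr, TMM, robust quasi-likelihood F test, adjusted p threshold 0.05) on 13022 genes. Genes with few wild-type counts, such as Ly6e, Trim30a, Mx1, Mx2, Rsad2, Ifitm6, H2-Oa, Hsh2d, Maged2 and Lyz2, passed the filter only through knockout libraries. For them a called rise was close to fixed in advance. Arhgap44 passed it only through wild-type libraries. On simulated counts with 200 of these genes changed, equally up and down, the test recovered 83% of 1.5-fold and 90% of 2-fold changes. It made 12 calls among 12822 unchanged genes. In the data 82.3% of genes were called, a setting that was not simulated, so these rates do not carry over. Standard errors were derived from the F statistic. Shares and ratios were compared with exact permutation tests over libraries (SciPy 1.17.1). The 4 pairs with Ifitm1 had libraries at 0 and were left out. Named genes are the members, the 3 nearest profiles per member, up to 3 called genes with the smallest adjusted p from each list, called genes near the members, and Lyplal1. Other named genes of the lists were chosen after their values were seen, and some genes the rule takes are given only in counts. Alternatives used limma 3.58.1 and DESeq2 1.42.0 in R 4.3.3. Promoter letters come from RefSeq windows on GRCm38.p6. Some genes of the lists and of the nearest profiles are not reported here.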

Additional observations from a re-analysis of the deposited data

How the results depend on the processing

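Ifitm3 and Bst2 kept their direction and their call under all 15 alternatives, at log2 fold changes of 3.69 to 3.94 and 5.32 to 5.59. Ifitm2 kept its call in 13 of 15 and lost it on log2(TPM + 1) and log2(TPM + 0.1), at 0.09 each (limma-trend adjusted p = 0.144 and 0.145). Apobec3 turned negative with upper-quartile factors (-0.08) and on log2(TPM + 1) and log2(TPM + 0.1) (-0.14 and -0.15). Scaling moved the median of all genes as well, and 38.5% of calls were higher in knockout on log2(TPM + 1) against 50.2% in the count test. The number of called genes ran from 10233 to 12030. Without one library at a time, Ifitm2 ranged from 0.25 to 0.36 and Apobec3 from 0.02 to 0.09. The difference in the share of Ifitm1 between the groups, -0.0301 percentage points, ranged from -0.0492 to 0.00809 without one library at a time and was positive only without wild-type replicate 2, which held its 3 wild-type counts. Of the genes for GPI anchoring and tetherin partners, 4 fell with upper-quartile factors against 2. With the replicate number as a block (replicate block) 10798 genes were called against 10711, and the log2 fold changes of Ifitm2, Ifitm3, Bst2 and Apobec3 were 0.30, 3.90, 5.54 and 0.06. Same-numbered libraries did not deviate together (r from -0.00742 to 0.0416), and 3 of 6 libraries correlated best with their own number, so the numbers were not taken as pairs. Depth limits what can be said of Ifitm1 and of the low paralogs. Ifitm1 had no value without wild-type replicate 2, which leaves that group at 0 counts, and of the alternatives that change the test, filter, factors or unit it had a value with no filter, at 0.83 (edgeR adjusted p = 0.56), and with DESeq2, at 0.90 (adjusted p = 0.715), only.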
